A study of Mus musculus with 3 samples.

Results

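The MHC class I and antigen processing genes described here are 10 genes taken by symbol from the authors' expression table, H2-K1, H2-D1, H2-T23, B2m, Tap1, Tap2, Tapbp, Psmb8, Psmb9 and Nlrc5. All 10 were among the 25791 symbols of the table. They were read in YUMM1.1, YUMM2.1 and YUMM1.7, mouse melanoma cell lines from a series on the response of transplanted melanoma to blockade of the T cell receptor PD-1. Each is represented by a single library (1 per line) made from total RNA, and the labels name no treatment, time or animal. From the published descriptions of these lines, and not from the labels, all of them carry an activated Braf allele directed to melanocytes by a Cre transgene, among other alleles. YUMM1.1 and YUMM1.7 also lack Cdkn2a, while YUMM2.1 keeps an allele of it and carries stabilized beta-catenin. Each line is a single cultured line, so a difference between lines cannot be told apart from a difference between these particular lines or cultures.

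MHC class I molecules show short peptides from inside the cell to CD8 T cells. The proteasome cuts proteins into peptides, the transporter formed by Tap1 and Tap2 moves them into the endoplasmic reticulum, and tapasin (Tapbp) helps load them onto a heavy chain paired with beta-2 microglobulin (B2m). Interferon gamma raises most of these genes, and Nlrc5 encodes the transactivator that acts on their promoters. Melanoma cells that lose this pathway can escape CD8 T cells.

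Expression was given by the authors as FPKM, fragment counts divided by transcript length and a library factor. How that factor was set was not given in the sources used here. Of all symbols, 11741 reached 1 FPKM in at least 1 line. Differences are given as ratios of FPKM, or as differences of log2(FPKM + 1), which are smaller than the ratios for genes near or below 1 FPKM. A gene is called higher or lower where this log2 difference reached 1. With 1 library per line there was no spread between replicates and no test, so every comparison describes these libraries only. The spacing of the lowest values implied a library factor of about 68.8 M fragments in YUMM1.1, 87.5 M in YUMM2.1 and 46.2 M in YUMM1.7. If the libraries were scaled to each other, this factor differs from the number of fragments sequenced. Intervals in brackets are exact 95% counting intervals made from the fragment numbers this spacing implies, and they cover counting error only. Over all expressed symbols, YUMM1.7 had 1589 higher and 1164 lower values than YUMM1.1. YUMM2.1 had 729 higher and 897 lower values than YUMM1.1, and 1376 higher and 2295 lower values than YUMM1.7. With each library rescaled to a common sum these splits became 662 and 3219, 2070 and 325, and 6444 and 511. A common upper quartile gave 1503 and 1196, 1009 and 571, and 1911 and 1793. The sum scaling shifted the median of all symbols to -0.60, 0.44 and 1.09, against 0.02, -0.05 and -0.02 as deposited.

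Markers of cell types were read in the same libraries before the class I genes. Of 7 melanocyte markers, the transcription factor gene Sox10 stood at 107 FPKM in YUMM1.1, 44.3 in YUMM2.1 and 0.00821 in YUMM1.7. Mitf was at 0.188, 1.23 and 0.617 FPKM, Mlana at 0.159, 6.18 and listed at 0, and Tyr, Tyrp1, Dct and Si (Pmel) were below 0.32 FPKM in every line. The melanoma label thus rests on Sox10 in YUMM1.1 and on Sox10, Mlana and Mitf in YUMM2.1, and none of the 7 reached 1 FPKM in YUMM1.7. Fibroblast markers summed over 6 genes to 157 FPKM in YUMM1.7, to 0.722 in YUMM1.1 and to 3.91 in YUMM2.1. Col1a2 made up 127 FPKM of the YUMM1.7 sum, and Lum was listed at 0 there. Leukocyte markers summed over 12 genes to 5.66 FPKM in YUMM1.1, 33.8 in YUMM2.1 and 2.45 in YUMM1.7. Lyz2 (25.9 FPKM), Cd68 (4.27) and Cd53 (3.01) made up most of the YUMM2.1 sum. Ptprc, carried by all leukocytes, was at 0.00217 FPKM there and listed at 0 in the other lines, and Tyrobp was listed at 0 in all 3. Endothelial markers summed to 0.193 FPKM or less over 4 genes. Of 9 class II genes with a row, 2 reached 1 FPKM, the peptide exchange genes H2-DMa (1.44, 1.07 and 0.741 FPKM) and H2-DMb1 (0.0257, 1.02 and 0.0569 FPKM). H2-Aa was listed at 0 throughout and Cd74, the class II invariant chain gene, reached at most 0.0136 FPKM. In bulk RNA, fewer cells of a type and less RNA per cell cannot be told apart. The part of these marker differences in the class I values was not tested.

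As deposited, YUMM1.7 had the highest value for 8 of the 10 genes (40.1% of all expressed symbols were highest there). YUMM1.1 had the lowest for 8 of 10 (24.2% of all). Tap1 and Tap2 were highest in YUMM2.1, and H2-K1 and Tapbp were lowest there. Under the sum scaling B2m, Tapbp and Psmb9 were instead higher in YUMM2.1 than in YUMM1.7, by log2 differences of 1.15, 0.87 and 0.52. Of the 10 genes, 9 reached 1 FPKM in at least 1 line and Nlrc5 did not. Tap1, Tap2, Psmb8 and Psmb9 were below 1 FPKM in YUMM1.1 and reached 1 through the other lines only. Within each library the spread was wide. In YUMM1.1 the values ran from 0.00828 FPKM for Nlrc5 to 330.3 FPKM for B2m. The gene with the widest span between lines was H2-K1, whose highest value was 202 times its lowest, and the narrowest was Tapbp at 1.37 times.

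**Figure D1:**
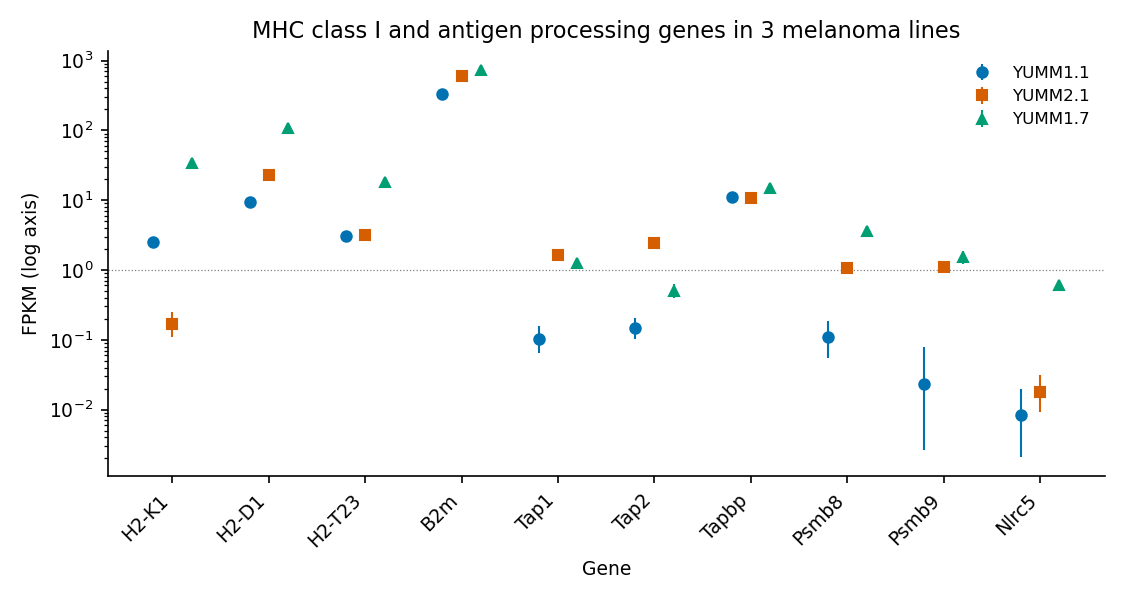
FPKM of the 10 genes in each line on a log axis, 1 library per line, with bars for 95% counting intervals. The dotted line marks 1 FPKM, and H2-K1 in YUMM2.1 at 0.166 FPKM lies below its values in the other lines, 2.52 for YUMM1.1 and 33.6 for YUMM1.7.

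The classical heavy chain genes H2-K1 and H2-D1, which encode the peptide-presenting chains seen by CD8 T cells, did not follow one order across the lines. H2-K1 stood at 2.52 FPKM in YUMM1.1, 0.166 in YUMM2.1 and 33.6 in YUMM1.7. H2-D1 stood at 9.38 FPKM in YUMM1.1, 22.9 in YUMM2.1 and 109 in YUMM1.7. Both genes were thus highest in YUMM1.7, but YUMM2.1 was the lowest line for H2-K1 and the middle line for H2-D1. The ratio of YUMM1.7 to YUMM1.1 was 13.3 (11.8 to 15.1) for H2-K1 and 11.6 (10.97 to 12.3) for H2-D1. Between YUMM2.1 and YUMM1.1 the genes went in opposite directions. H2-K1 was 15.1 times higher in YUMM1.1 (9.80 to 23.6), and H2-D1 was 2.44 times higher in YUMM2.1 (2.30 to 2.596).

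The imbalance within a library does not depend on how the libraries were scaled. H2-D1 was 3.72 times H2-K1 in YUMM1.1, 3.24 times in YUMM1.7, but 138 times in YUMM2.1. The H2-K1 value of YUMM2.1 corresponded to about 24 fragments, while YUMM1.1 had about 281 and YUMM1.7 about 2514. Among expressed symbols it lay at percentile 2.45 of its library, whereas H2-K1 of YUMM1.7 lay at percentile 79.7. For H2-D1 the percentiles were 55.5 in YUMM1.1, 76.8 in YUMM2.1 and 90.4 in YUMM1.7.

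Heavy chain genes are related in sequence, and the sources used here do not say how reads that match several of them were counted. The longest coding transcripts of H2-K1 and H2-D1 in the GENCODE M21 annotation aligned over 1576 positions with 86.5% identity. Of the stretches of 50 bases in the H2-K1 transcript, 8.79% also occurred in a transcript of another gene, mostly in H2-D1 (6.94%). For H2-D1 the share was 14.3% and for H2-T23 28.8%. With stretches of 100 bases the shares were 0% for H2-K1, 4.64% for H2-D1 and 7.28% for H2-T23. B2m, Psmb8, Psmb9 and Nlrc5 shared no stretch of 50 bases with another gene, so the assignment of reads is less certain for the heavy chains than for these genes.

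The promoters of H2-K1 and H2-D1 are shown because these genes differed in opposite directions between YUMM2.1 and YUMM1.1. Those of B2m and Tap1 are shown as the light chain and the transporter of the same pathway. Each is the 250 bases before the annotated start in RefSeq (GRCm38.p6), 5′ to 3′ on the gene's strand. They lie at chr17:34000348-34000597 on the minus strand for H2-K1, chr17:35262844-35263093 on the plus strand for H2-D1, chr2:122147437-122147686 on the plus strand for B2m and chr17:34187306-34187555 on the plus strand for Tap1. Capitals mark matches, on either strand, to an interferon regulatory factor core (AANNGAAA), an NF-kB core (GGGA, any 4 bases, then CC), a CRE core as in the X2 box of class I promoters (TGACG) and a CCAAT box as in their Y box (CCAAT).
H2-K1: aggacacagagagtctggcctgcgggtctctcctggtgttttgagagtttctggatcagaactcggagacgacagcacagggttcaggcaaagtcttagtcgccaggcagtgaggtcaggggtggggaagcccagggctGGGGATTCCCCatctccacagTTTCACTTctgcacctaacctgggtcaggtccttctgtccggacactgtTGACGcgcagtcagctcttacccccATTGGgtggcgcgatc
H2-D1: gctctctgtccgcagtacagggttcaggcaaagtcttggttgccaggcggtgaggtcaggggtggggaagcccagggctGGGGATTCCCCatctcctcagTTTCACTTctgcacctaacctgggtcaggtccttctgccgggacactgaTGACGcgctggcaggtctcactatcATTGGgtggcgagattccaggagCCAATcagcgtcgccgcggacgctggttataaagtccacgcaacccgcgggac
B2m: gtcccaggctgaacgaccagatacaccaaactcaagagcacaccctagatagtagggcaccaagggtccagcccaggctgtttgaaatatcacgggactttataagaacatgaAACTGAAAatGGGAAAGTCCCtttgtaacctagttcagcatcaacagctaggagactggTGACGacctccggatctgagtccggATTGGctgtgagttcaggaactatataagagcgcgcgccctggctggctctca
Tap1: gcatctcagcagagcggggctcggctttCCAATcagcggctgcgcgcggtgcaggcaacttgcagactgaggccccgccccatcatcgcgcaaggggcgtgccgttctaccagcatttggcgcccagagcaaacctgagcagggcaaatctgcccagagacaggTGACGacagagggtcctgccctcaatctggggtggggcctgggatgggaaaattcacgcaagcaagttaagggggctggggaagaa

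The H2-K1 and H2-D1 promoters could be aligned over 188 positions with no gap and 88.3% identity. Both held the 4 kinds of match in the same order. In H2-K1 these began 110 (NF-kB core), 90 (interferon regulatory factor core), 41 (CRE core) and 16 bases (CCAAT box) before the annotated start. In H2-D1 they began 170, 150, 101 and 76 bases before it, followed by another CCAAT box at 53 bases. H2-K1 likewise held another CCAAT box, 9 bases after its start and so outside the stretch printed above. B2m held all 4 kinds as well. Its interferon regulatory factor core began 137 bases before the start and its CRE core 78 bases before it. Of the 10 genes, 8 had a promoter in the table, and the searched window was 300 bases, 250 before and the rest after the start. Among all 27025 promoters of that length, 24.2% held the interferon regulatory factor core, 20.5% the NF-kB core, 21.02% the CRE core and 37.9% the CCAAT box. All 4 kinds occurred together in 0.329% of them, and in 3 of the 8 promoters described here. The CRE core and CCAAT box were searched because class I promoters hold them, and the H2-K1 and H2-D1 promoters are alike in sequence. The share among these promoters is therefore no independent test. The paired NF-kB matches on opposite strands overlapped each other in H2-K1, H2-D1 and B2m. The Psmb8 window held none of the 4 kinds. A match describes letters only.

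H2-T23 encodes Qa-1, a nonclassical heavy chain that presents leader peptides of other class I chains and is a ligand of the NKG2A receptor of natural killer and T cells. It stood at 3.03 FPKM in YUMM1.1, 3.12 in YUMM2.1 and 18.4 in YUMM1.7. The lower values were close to each other, with a ratio of YUMM2.1 to YUMM1.1 of 1.03 (0.886 to 1.20), and YUMM1.7 was 6.06 times above YUMM1.1 (5.36 to 6.90). Its promoter held 2 interferon regulatory factor cores, beginning 124 and 81 bases before the start, and a CCAAT box.

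Of the other heavy chain genes of the MHC, 17 of 23 listed symbols were in the table and 3 reached 1 FPKM. H2-M3, which presents formylated peptides, stood at 0.581 FPKM in YUMM1.1, 13.0 in YUMM2.1 and 7.78 in YUMM1.7. Unlike the classical genes, it was highest in YUMM2.1. H2-T22, a ligand of some gamma delta T cells, was at 31.7, 26.7 and 46.7 FPKM in the same order of lines, and H2-T10 at 1.75, 2.11 and 3.23. H2-Q9 reached 0.99 FPKM in YUMM1.7 and was listed at 0 in both other lines. H2-Q1, H2-Q6 and H2-Q8 were at 0.126 FPKM or below, H2-T24 at 0.296 to 0.51 FPKM, and H2-Q2, H2-Q10 and H2-T3 were listed at 0 in all 3 lines.

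Summed over the 20 heavy chain symbols with a row, the class I level was 49.4 FPKM in YUMM1.1, 68.5 in YUMM2.1 and 220.2 in YUMM1.7. H2-T22 made up 64.2% of that sum in YUMM1.1, 39.0% in YUMM2.1 and 21.2% in YUMM1.7. H2-D1 made up 19.0%, 33.4% and 49.4% in the same order, and H2-K1 5.10%, 0.243% and 15.3%. The nonclassical gene was thus the largest term in YUMM1.1 and YUMM2.1, and H2-D1 in YUMM1.7.

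B2m, the light chain shared by all these heavy chains, was among the most abundant transcripts of every line. It stood at 330.3 FPKM in YUMM1.1, 608 in YUMM2.1 and 723 in YUMM1.7, above 96.7% to 98.5% of expressed symbols of its library. The ratio of YUMM1.7 to YUMM1.1 was 2.19 (2.15 to 2.23) and that of YUMM2.1 to YUMM1.1 was 1.84 (1.81 to 1.87). B2m of YUMM1.7 was 1.19 times that of YUMM2.1, an order that turned under the sum scaling. B2m exceeded the sum of H2-K1 and H2-D1 by 27.8 times in YUMM1.1, 26.4 times in YUMM2.1 and 5.08 times in YUMM1.7. As deposited, the highest B2m value was 2.19 times the lowest, against 202 times for H2-K1 and 11.6 times for H2-D1. Relative to the sum of the classical genes, B2m was alike in YUMM1.1 and YUMM2.1 and lower in YUMM1.7. Under the sum scaling B2m differed more than H2-D1 in YUMM2.1 against YUMM1.7 (1.15 against -0.83).

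The transporter genes were at their lowest in YUMM1.1. Tap1 stood at 0.102 FPKM in YUMM1.1, 1.62 in YUMM2.1 and 1.25 in YUMM1.7. Tap2 stood at 0.146 FPKM in YUMM1.1, 2.46 in YUMM2.1 and 0.504 in YUMM1.7. YUMM2.1 was therefore the highest line for both subunits, by a small margin for Tap1. Against YUMM1.1 it was 15.9 times higher for Tap1 (10.1 to 25.5) and 16.8 times higher for Tap2 (11.9 to 24.1). Between YUMM2.1 and YUMM1.7 the ratio was 1.29 for Tap1 (1.08 to 1.55) and 4.88 for Tap2 (3.88 to 6.24). The subunits pair with each other in the transporter, and their balance leaned to Tap2 in YUMM1.1 and YUMM2.1 and to Tap1 in YUMM1.7. Tap2 exceeded Tap1 by 1.44 times in YUMM1.1 and 1.52 times in YUMM2.1, but Tap1 exceeded Tap2 by 2.48 times in YUMM1.7. The YUMM1.1 ratio rests on about 21 fragments of Tap1 and 35 of Tap2, and no interval was made for it.

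Tapbp, the tapasin gene, had the narrowest span as deposited. It stood at 10.9 FPKM in YUMM1.1, 10.9 in YUMM2.1 and 14.9 in YUMM1.7. The ratio of YUMM2.1 to YUMM1.1 was 0.997 (0.943 to 1.06), and YUMM1.7 was 1.37 times above YUMM1.1 (1.28 to 1.45), an order that turned under the sum scaling. Its promoter held the CCAAT box and no other of the 4 kinds of match.

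Other genes of peptide trimming and loading were expressed in every line. Relative to YUMM1.1, none of 9 such genes was called in YUMM1.7 (13.5% of all expressed symbols were higher and 9.91% lower). In YUMM2.1, 1 was called lower (Calr), against 7.64% of all. With YUMM1.7 as the reference, 2 of the 9 were higher in YUMM2.1 (11.7% of all expressed symbols) and 2 were lower (19.5% of all). Calr, a chaperone of newly made heavy chains, was at 673 FPKM in YUMM1.1, 302 in YUMM2.1 and 634 in YUMM1.7. The peptide-trimming gene Lnpep was at 7.92, 11.8 and 4.28 FPKM, and the tapasin-related gene Tapbpl at 4.93, 3.87 and 9.64. Canx, the chaperone calnexin, was at 90.3, 115 and 56.7 FPKM. Under the sum scaling 5 of the 9 were lower in YUMM1.7 than in YUMM1.1 (27.0% of all symbols), and 7 were higher in YUMM2.1 than in YUMM1.7 (54.1% of all).

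Psmb8 and Psmb9 encode inducible catalytic subunits that replace Psmb5 and Psmb6 in the immunoproteasome, which alters the peptides made for class I. Psmb8 stood at 0.109 FPKM in YUMM1.1, 1.06 in YUMM2.1 and 3.66 in YUMM1.7. Psmb9 stood at 0.0230 FPKM in YUMM1.1, 1.099 in YUMM2.1 and 1.52 in YUMM1.7. YUMM1.1 was the lowest line for both. Its Psmb8 and Psmb9 values rested on about 12 and about 2 fragments. The ratio of YUMM1.7 to YUMM1.1 was 33.6 for Psmb8 (19.2 to 66.8) and 66.2 for Psmb9 (19.0 to 592). YUMM2.1 exceeded YUMM1.1 by 9.69 times for Psmb8 (5.50 to 19.6) and by 47.8 times for Psmb9 (13.9 to 427).

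In every line the inducible genes stood far below their standard counterparts. Psmb5 exceeded Psmb8 by 2546 times in YUMM1.1, 230.3 times in YUMM2.1 and 192 times in YUMM1.7. Psmb6 exceeded Psmb9 by 24334 times in YUMM1.1, 337 times in YUMM2.1 and 796 times in YUMM1.7. These ratios lie within a library, so the scaling of the libraries does not enter them. Psmb10, the third inducible catalytic gene, behaved differently and stood at 18.5 FPKM in YUMM1.1, 12.2 in YUMM2.1 and 36.6 in YUMM1.7. Psmb7, its standard counterpart, exceeded it by 20.4, 21.2 and 11.5 times.

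**Figure D2:**
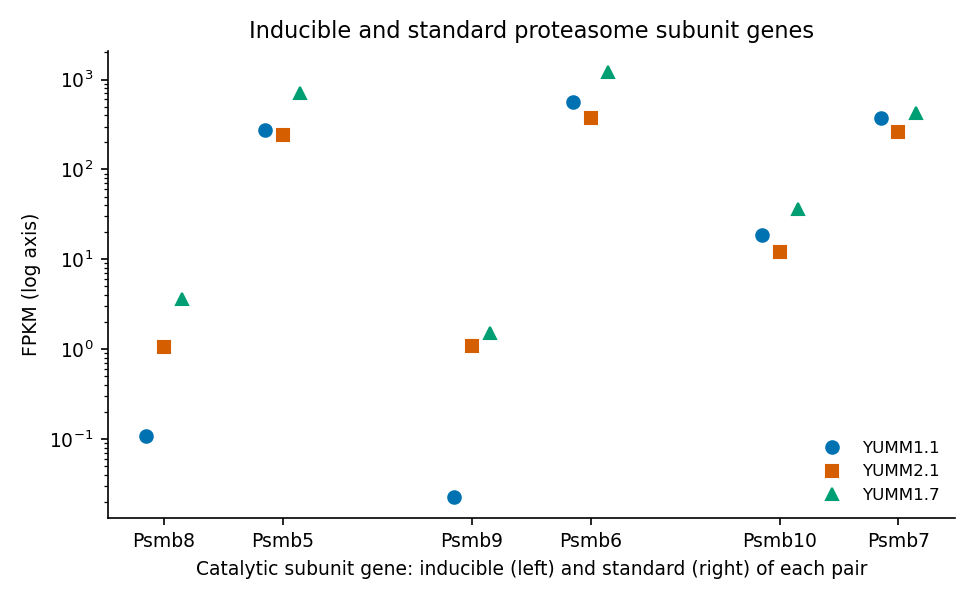
FPKM on a log axis of the inducible and standard catalytic subunit genes of the proteasome, 1 library per line. Psmb8 and Psmb9 lie at 3.66 FPKM or below in every line, while Psmb10 lies at 12.2 to 36.6 FPKM.

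Psme1 and Psme2, the interferon-inducible subunits of the proteasome activator, were abundant throughout. Psme1 stood at 72.3 FPKM in YUMM1.1, 80.6 in YUMM2.1 and 177 in YUMM1.7, and Psme2 at 329, 299 and 538. All 14 standard core genes were above 140 FPKM in every line. Relative to YUMM1.1, 4 of them were higher in YUMM1.7 (13.5% of all expressed symbols) and 2 lower in YUMM2.1 (7.64%). Under the sum scaling 0 were called in either comparison. Of all symbols, 5.56% were then higher and 27.0% lower in YUMM1.7, and 17.4% and 2.73% in YUMM2.1. In YUMM2.1 against YUMM1.7, 0 were higher (11.7% of all) and 10 lower (19.5%) as deposited. The sum scaling gave 2 higher (54.1% of all) and 0 lower (4.29%).

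Psmb9 and Tap1 lie head to head, and their annotated starts are 226 bases apart, so that 275 bases of their promoter windows are the same sequence. The Tap1 promoter shown above holds most of this stretch, with a CCAAT box 222 bases and a CRE core 86 bases before the Tap1 start. The pair did not keep a fixed ratio. Psmb9 was 0.227 times Tap1 in YUMM1.1, 0.68 times in YUMM2.1 and 1.22 times in YUMM1.7, where the YUMM1.1 value rests on the roughly 2 fragments of Psmb9.

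Nlrc5, the class I transactivator, was barely detected outside YUMM1.7. It stood at 0.00828 FPKM in YUMM1.1, 0.0178 in YUMM2.1 and 0.606 in YUMM1.7, about 4, 12 and 212 fragments. The ratio of YUMM1.7 to YUMM1.1 was 73.2 (30.4 to 292), and that to YUMM2.1 was 34.0 (18.7 to 65.7). YUMM2.1 and YUMM1.1 did not differ beyond counting error, at a ratio of 2.16 (0.715 to 10.04). Because of its low level, Nlrc5 differed by 0.67 between YUMM1.7 and YUMM1.1 on the log2(FPKM + 1) scale and was not called. YUMM1.7, the line with the most Nlrc5, also had the most H2-K1, H2-D1, H2-T23 and Psmb8. Of all expressed symbols, 40.1% were highest in that line. Tap1 and Tap2 were highest in YUMM2.1, where Nlrc5 was 34.0 times lower than in YUMM1.7. Whether Nlrc5 had a part in any of these differences was not tested.

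Other factors of class I promoters were also read. Of 13 expressed members of that list, 0 were called in either line relative to YUMM1.1. Of all expressed symbols, 13.5% were higher and 9.91% lower in YUMM1.7, and 6.21% and 7.64% in YUMM2.1. The interferon-responsive factor Irf1 stood at 17.2 FPKM in YUMM1.1, 13.6 in YUMM2.1 and 13.2 in YUMM1.7. Rfx5, a subunit of the complex that binds the X box, was at 1.25, 1.75 and 0.641 FPKM. In YUMM2.1 against YUMM1.7, 1 member was lower (19.5% of all), the CCAAT-binding subunit gene Nfyc at 5.12 against 17.6 FPKM. The sum scaling called 5 of the 13 lower in YUMM1.7 than in YUMM1.1, where 27.0% of all symbols were lower. It called 7 of the 13 higher in YUMM2.1 than in YUMM1.7, a share like the 54.1% of all symbols. The Polycomb genes Ezh2, Eed and Suz12, whose complex can silence class I genes, ranged from 7.06 to 22.1 FPKM and 0 of 3 were called in any comparison as deposited. The sum scaling called all 3 higher in YUMM2.1 against YUMM1.7 (54.1% of all symbols). Against YUMM1.1 it called 1 lower in YUMM1.7 (27.0% of all) and 1 higher in YUMM2.1 (17.4%).

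As deposited, YUMM1.7 against YUMM1.1 had the most calls of the 3 comparisons, an order that did not hold under the sum scaling, the upper quartile or the subtraction of length class medians. At a difference of 1 or more, 7 of the 10 genes were higher in YUMM1.7 (H2-K1, H2-D1, H2-T23, B2m, Tap1, Psmb8 and Psmb9), where 13.5% of all expressed symbols were higher. None of the 10 was lower, against 9.91% of all. Tap1, Psmb8 and Psmb9 were below 1 FPKM in YUMM1.1 and passed the filter only through other lines. Their calls are thus no support for a pattern. All 10 had the larger value in YUMM1.7, as did 50.9% of all expressed symbols. At a difference of 2 or more, H2-K1, H2-D1, H2-T23 and Psmb8 were higher, 4 of 10 against 3.95% of all, and 0 of 10 were lower, against 3.06%. The median difference of the 10 genes was 1.22, against 0.02 for all expressed symbols. The calls of Tap1, Psmb9 and B2m were close to the threshold, at 1.03, 1.30 and 1.13. These 3 calls ended under the sum scaling (0.66, 0.90 and 0.32), which left 4 of 10 higher, against 5.56% of all symbols, and turned Tapbp to -0.33.

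Between YUMM2.1 and YUMM1.1, 8 of the 10 genes had the larger value in YUMM2.1 as deposited, as did 45.7% of all expressed symbols. H2-K1 and Tapbp had the larger value in YUMM1.1, Tapbp with a ratio of YUMM2.1 to YUMM1.1 of 0.997. H2-D1, Tap1, Tap2 and Psmb9 were higher in YUMM2.1, 4 of 10 against 6.21% of all expressed symbols. H2-K1 was lower, 1 of 10 against 7.64%. Tap1, Tap2 and Psmb9 were below 1 FPKM in YUMM1.1, and H2-K1 in YUMM2.1. They passed the filter only through other lines, so their calls are no support for a pattern. On log2(FPKM + 1) as deposited, no gene of the 10 differed by 2 or more. Of all, 1.47% were higher and 1.11% lower by that much. As ratios of FPKM, Tap1 (15.9), Tap2 (16.8), Psmb8 (9.69) and Psmb9 (47.8) exceeded 4 in YUMM2.1 over YUMM1.1. So did H2-K1 in YUMM1.1 over YUMM2.1 (15.1), while the other genes did not. Under the sum scaling Tap2 reached 2.08 on the log2 scale. The median difference was 0.89, against -0.05 for all. The log2 differences were 1.20 for H2-D1, 1.25 for Tap1, 1.59 for Tap2, 1.04 for Psmb9 and -1.59 for H2-K1. B2m at 0.88 and Psmb8 at 0.89 lay just below the threshold and passed it under the sum scaling (1.47 and 1.26). H2-T23, at 0.03, and Nlrc5, at 0.01, were nearly level on this scale.

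The comparison of YUMM2.1 with YUMM1.7 uses the libraries of the comparisons above and is not independent of them. H2-K1, H2-D1, H2-T23 and Psmb8 were lower in YUMM2.1, 4 of 10 against 19.5% of all expressed symbols. Tap2 was higher, 1 of 10 against 11.7%. H2-K1 was below 1 FPKM in YUMM2.1 and Tap2 in YUMM1.7, so both passed the filter only through other lines. Their calls are no support for a pattern either. At 2 or more, H2-K1, H2-D1 and H2-T23 were lower, 3 of 10 against 5.54%, and 0 of 10 were higher, against 3.13%. The median difference was -0.54, against -0.02 for all. The H2-K1 ratio of YUMM1.7 to YUMM2.1 was 202 (133 to 310.0), that of H2-D1 was 4.76 (4.59 to 4.93) and that of H2-T23 was 5.90 (5.26 to 6.61). Under the sum scaling H2-K1 (-4.07) and H2-T23 (-1.02) were called lower, while H2-D1 (-0.83) and Psmb8 (-0.26) were not. Psmb9 (0.52), B2m (1.15) and Tapbp (0.87) then turned to the other direction. With 3 of 10 higher, the members were below the 54.1% of all symbols that were higher under that scaling, and with 2 of 10 lower they stood beside 4.29% of all.

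**Figure D3:**
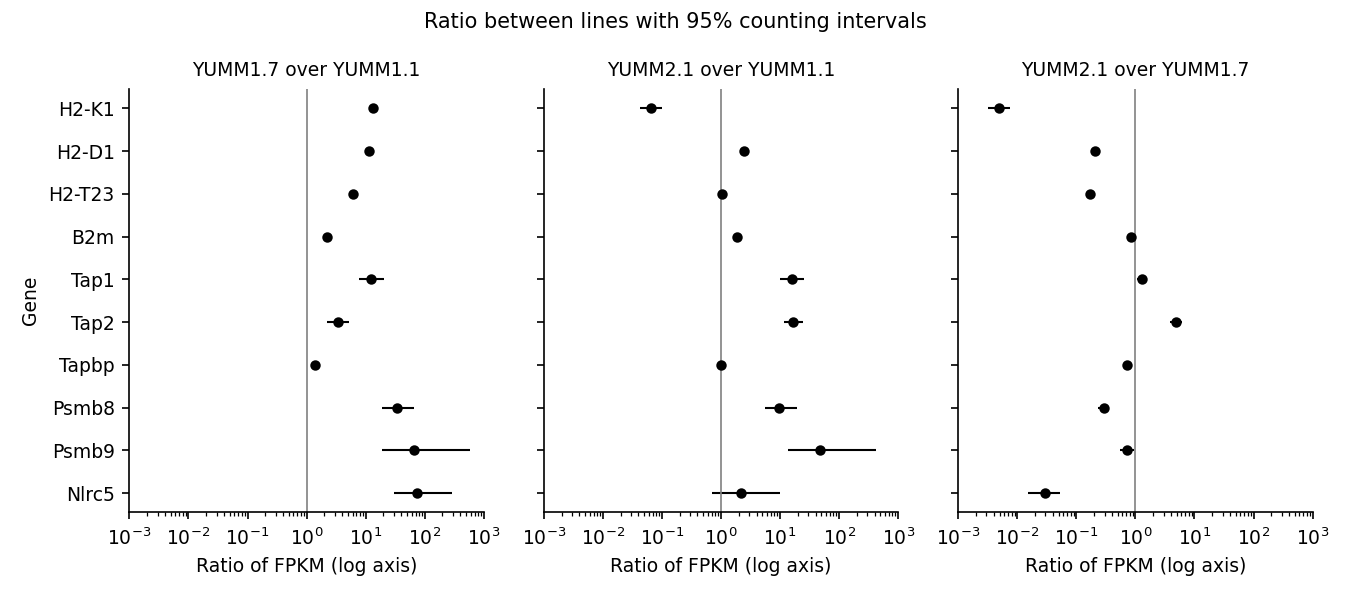
Ratio of FPKM between lines for each of the 10 genes on a log axis, with 95% counting intervals, 1 library per line. In YUMM1.7 over YUMM1.1 all 10 points lie above 1 as deposited (Tapbp falls below 1 under the sum scaling), while in YUMM2.1 over YUMM1.1 H2-K1 lies at 0.0660 and Tap1 and Tap2 near 16.

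As deposited, 4 of the 10 genes were highest in YUMM1.7 by 1 or more against each other line, as were 10.5% of expressed symbols. They were H2-K1, H2-D1, H2-T23 and Psmb8. H2-D1, Tap1 and Psmb9 were lowest in YUMM1.1 by that margin, 3 of 10 against 2.26%. In YUMM2.1, Tap2 was highest (1 of 10 against 3.13%) and H2-K1 lowest (1 of 10 against 4.15%). Tap1 and Psmb9 were below 1 FPKM in YUMM1.1, H2-K1 in YUMM2.1, and Tap2 in YUMM1.1 and YUMM1.7. Each passed the filter only through lines where it was higher, so these counts are no support for a pattern. None of the 10 was highest in YUMM1.1 by that margin (2.5% of all) or lowest in YUMM1.7 (5.85%). Under the sum scaling H2-D1 (-0.83) and Psmb8 (-0.26) missed the margin in YUMM2.1 minus YUMM1.7. Tap1 (0.66) and Psmb9 (0.90) missed it in YUMM1.7 minus YUMM1.1. Psmb8 was then lowest in YUMM1.1, and Tap1 and B2m highest in YUMM2.1, by 1 or more. The shares above use the same libraries as the pairwise counts.

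Transcript length moved with the comparisons, and its part in the results was not tested. Among expressed symbols with a length, the shortest of 5 equal classes held H2-K1, H2-T23, B2m, Psmb8 and Psmb9. Its median difference was 0.50 in YUMM1.7 against YUMM1.1, -0.38 in YUMM2.1 against YUMM1.1 and -0.86 in YUMM2.1 against YUMM1.7. With the median of its own class subtracted, B2m in YUMM1.7 against YUMM1.1 was at 0.63 and Psmb9 at 0.80, both below the threshold. H2-K1 was at 2.80 and Psmb8 at 1.57 in that comparison. In YUMM2.1 against YUMM1.1 the subtraction took B2m to 1.26 and Psmb8 to 1.27, both past the threshold. There 6 genes were then higher, against 6.70% of all symbols with a length. Subtraction turned B2m (0.61) and Psmb9 (0.59) to higher in YUMM2.1 against YUMM1.7 and moved Psmb8 there to -0.32.

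Members of the pathway lie beside genes with other functions in the MHC on chromosome 17. Between Tapbp and Tap2 the annotation places 32 genes, of which 25 had a row, 6 of the described genes and 13 others being expressed. Relative to YUMM1.1, 2 of those 13 neighbors were higher in YUMM1.7 (B3galt4 and Rps18), against 13.5% of all expressed symbols. The median of the 13 was 0.04. In YUMM2.1, 1 was lower, against 7.64% of all (median of the 13 -0.12). Ring1, near H2-K1, stood at 6.10, 5.54 and 5.001 FPKM in YUMM1.1, YUMM2.1 and YUMM1.7. The zinc transporter gene Slc39a7 stood at 52.7, 52.8 and 53.1 FPKM, and Brd2, between H2-K1 and the Psmb9 to Tap2 cluster, at 30.7, 31.8 and 31.2 FPKM. H2-Ke6, a steroid dehydrogenase gene close to H2-K1, was the neighbor lower in YUMM2.1, at 8.58, 1.42 and 11.1 FPKM. Neighbors were named here after their values were seen.

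**Figure D4:**
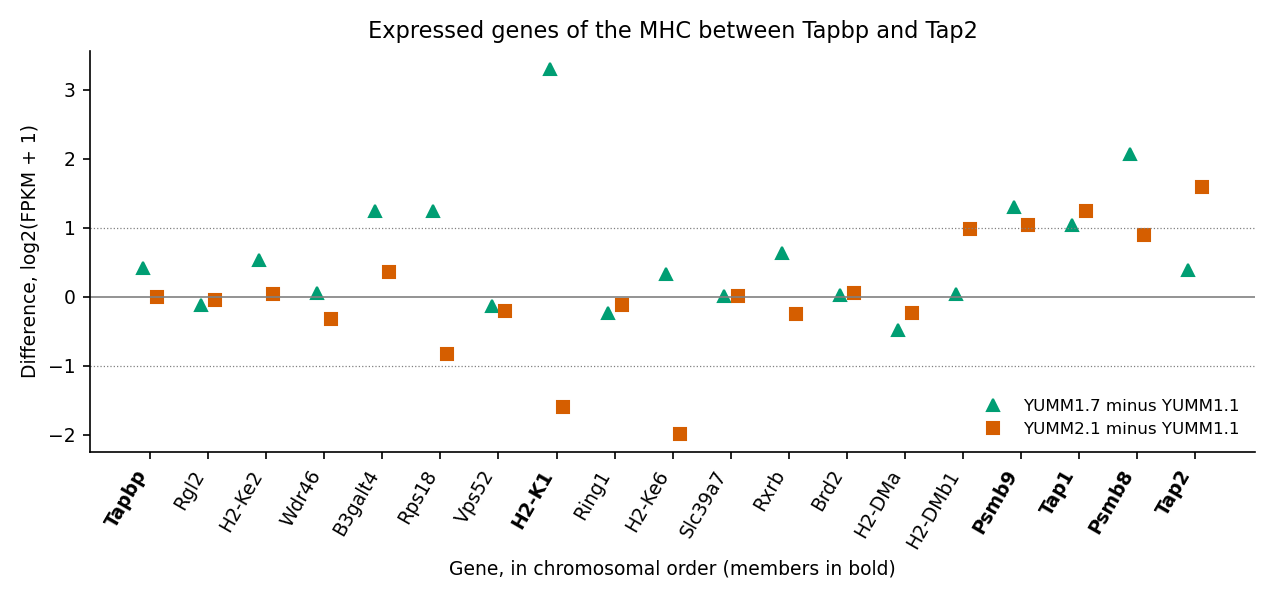
Difference in log2(FPKM + 1) of YUMM1.7 and of YUMM2.1 from YUMM1.1 for the 19 expressed genes from Tapbp to Tap2 in chromosomal order, described genes in bold, dotted lines at a difference of 1. H2-K1 reaches 3.30 in YUMM1.7 and -1.59 in YUMM2.1 while Ring1, Slc39a7 and Brd2 lie between -0.24 and 0.05. Among the other neighbors, H2-Ke6 lies at -1.99 in YUMM2.1, and B3galt4 and Rps18 lie at 1.24 and 1.25 in YUMM1.7.

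Class I-like genes that lie outside the MHC were read as well. Of 5 listed genes 3 reached 1 FPKM. Relative to YUMM1.1 all 3 were higher in YUMM2.1 (6.21% of all expressed symbols) and 2 in YUMM1.7 (13.5% of all). Hfe and Mr1 were below 1 FPKM in YUMM1.1 and passed the filter only through lines where they were higher, so their counts are no support for a pattern. The neonatal Fc receptor gene Fcgrt stood at 1.87 FPKM in YUMM1.1, 10.8 in YUMM2.1 and 8.89 in YUMM1.7. Hfe, a regulator of iron uptake, stood at 0.165, 3.77 and 3.55 FPKM, and Mr1, which presents vitamin B metabolites, at 0.206, 2.91 and 0.509.

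Over the 3 libraries, the 5 symbols whose centred log2 values lay closest to the mean pattern of the 10 genes were Zfp7, Pigy, Ptp4a3, Arid5a and Zfp52. Their Euclidean distances were 0.0329 to 0.0543. Zfp7, the closest, stood at 0.169, 0.698 and 2.45 FPKM in YUMM1.1, YUMM2.1 and YUMM1.7. The likeness rests on 3 points per gene.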

How the data were processed

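RNA was sequenced from YUMM1.1, YUMM2.1 and YUMM1.7, 1 library each. The authors deposited FPKM per gene symbol, and per the submitters' processing notes TopHat2 2.0.9, Cufflinks and Cuffnorm were used. The genome build, the annotation, the handling of reads matching several genes and the library scaling were not given in the sources used here. Values were used as deposited, as log2(FPKM + 1), for symbols with at least 1 FPKM in at least 1 line (11741 of 25791), and 0 symbols were repeated. A difference of 1 or more was counted, without a p-value. The members and lists were chosen with earlier results of these data known.

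The library factor came from the spacing of low FPKM times length in 808 single-transcript genes of at least 3000 nt. Of the low values, 76.8% to 83.2% lay within 0.2 of a whole multiple. On counts simulated without scaling between libraries, the largest error of this factor was 5.42%. Implied fragments used the longest coding transcript in GENCODE M21 and are approximate, more so for short transcripts. Lengths were found for 95.3% of expressed symbols, older symbols matched through RefSeq. Promoters and their coordinates came from RefSeq (GRCm38.p6), and the authors' build is unknown. Named genes were the 10 members, at most 4 per list by largest difference, and fixed regulator, heavy chain and melanocyte genes, apart from chromosomal neighbors and markers, which were named after their values were seen. Of the regulator genes so chosen, 1 is not reported here. Alternatives were pseudocounts of 0.1 and 5, other filters, 3 scalings, summed heavy chains and, added after the data were seen, subtraction of the length class median. Python 3.11.15, numpy 2.4.6, pandas 2.3.3, scipy 1.17.1, Biopython 1.88 and matplotlib 3.10.9 were used.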

Additional observations from a re-analysis of the deposited data

How the results depend on the processing

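No paired analysis was possible because each line had 1 library, and for the same reason no replicate could be left out. No called difference of the 10 genes changed direction under any alternative run. With a pseudocount of 5, which shrinks differences of low genes by construction, YUMM1.7 had 4 of 10 genes higher than YUMM1.1 (7.94% of all). YUMM2.1 then had 0 higher (1.81% of all) and 0 lower (3.87%) than YUMM1.1, and 0 higher than YUMM1.7 (4.43%). With a filter at 5 FPKM 5 of the genes remained, and the higher counts were 4, 1 and 0 in the same order of comparisons. Under the sum scaling YUMM1.7 had 4 higher than YUMM1.1 (5.56% of all symbols), and YUMM2.1 had 3 higher and 2 lower than YUMM1.7 (54.1% and 4.29% of all). With the heavy chains summed, YUMM2.1 had 0 lower than YUMM1.1 (7.64% of all expressed symbols) and 2 lower than YUMM1.7 (19.5%). H2-K1 is then part of the sum. All other counts lay within 1.5 times the reported ones.

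Differences below the threshold that changed sign were those of Tapbp, B2m and Psmb9. Under the sum scaling Tapbp was at -0.33 (YUMM1.7 minus YUMM1.1), 0.55 (YUMM2.1 minus YUMM1.1) and 0.87 (YUMM2.1 minus YUMM1.7), and in the last comparison B2m was at 1.15 and Psmb9 at 0.52. Tapbp in YUMM2.1 minus YUMM1.1, reported as 0.00, was at 0.19 with the upper quartile, 0.038 with the median ratio and 0.061 with the length class median subtracted. That subtraction, added after the data were seen, put B2m at 0.61 and Psmb9 at 0.59 in YUMM2.1 minus YUMM1.7. The cause was not tested. Depth limits Psmb9 and Nlrc5 in YUMM1.1 most, at about 2 and 4 fragments.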
